A study of Mus musculus with 135 samples.

Results

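The aminoacyl-tRNA synthetases are described here across the mouse oocytes, embryos and embryonic stem cells (ESCs) of a study of the Obox homeobox genes. The members are 36 named genes, 20 for cytosolic enzymes and 16 for mitochondrial enzymes, out of the 24116 gene names kept in the knockout table, 1 of 7 tables of FPKM (a fragment count corrected for transcript length and library size). They were chosen by name, and all 36 are listed in each of the 7 tables. RNA was measured by Smart-seq2, a full-length RNA-seq method for few cells, in 107 of the 135 samples. The study asks what OBOX does at zygotic genome activation, the onset of transcription from the embryo's own genome, which in mouse has its major wave at the late 2-cell stage.

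The knockout series held Obox KO full-grown oocytes (FGO) and mature oocytes (MII), 2 libraries each, against wild-type FGO and MII oocytes, 2 each. It also held embryos lacking Obox from both the egg and the embryo's own genome (Obox mzKO) at early 2-cell (2 libraries), at late 2-cell (3) and at the time control embryos were at 4-cell (3), against wild-type embryos of those stages (2, 3 and 3). At the time of the blastocyst the 2 mzKO libraries came from embryos arrested at 2-cell, against 2 libraries of wild-type blastocysts. Of mzKO embryos with overexpressed (OE) Obox, 1 library each came from blastocysts labelled Obox157OE and Obox3OE and from arrested 2-cell embryos labelled Obox4OE. A second table held embryos without maternal Obox (mKO) against their own wild-type controls, 2 libraries each at late 2-cell and 1 each at blastocyst. Another, labelled single embryo, held Obox-- embryos (3 early and 4 late 2-cell libraries) against Obox+- embryos (3 and 3). Knockdowns used siRNA at 25 uM, injected into FGO for late 2-cell parthenotes, which develop without sperm (siObox12mix, siObox5 and siObox7, 2 libraries each, against 3 of siCtrl), or into zygotes. The zygotic ones were siObox4 at early 2-cell (2 against 2 of siCtrl), siObox3 at late 2-cell (1 against 1), and siObox6 and siObox8 at 4-cell (2 each against 3). ESCs grown in 2i medium expressed Obox3 (4 libraries), Obox5 (4) or GFP (5). ESCs with Nr5a2 knocked out or intact, where Nr5a2 is a nuclear receptor of the early embryo, expressed Obox3, Obox5 or GFP (2 each). A last table held 1 library per condition of wild-type embryos, at late 2-cell and at blastocyst, overexpressing Obox1, Obox2, Obox3 or Obox5 or given water. The labels name no deleted interval, and do not say whether libraries of a group came from separate mothers or cultures, so p-values measure only the spread between these libraries.

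Aminoacyl-tRNA synthetases join each amino acid to its tRNA, the step at which the genetic code is read. The gene names give the amino acid in 1 letter, followed by ars, so that Rars encodes the arginyl enzyme and Hars the histidyl enzyme, and a final 2 marks the mitochondrial enzyme. Several cytosolic enzymes (Dars, Eprs, Iars, Kars, Lars, Mars, Qars, Rars) sit in a multi-synthetase complex, Eprs charges both glutamate and proline, and Gars and Kars encode cytosolic and mitochondrial forms. Cytosolic phenylalanyl-tRNA synthetase is built of an alpha subunit (Farsa) and a beta subunit (Farsb), while mitochondrial Fars2 works alone. Mitochondria have no glutaminyl enzyme of their own kind: Ears2 first charges the tRNA with glutamate, and an amidotransferase (Qrsl1, Gatb, Gatc) converts it. In amino acid shortage the transcription factor ATF4 raises many cytosolic synthetase genes through a C/EBP-ATF element in their promoters.

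Promoters are shown for 3 cytosolic members that carry that element and for Fars2, whose course through the stages ran against most members. RefSeq promoters of GRCm38.p6 (250 bases before to 50 bases after the start, 32851 in the table) were found by symbol for 27 of the 36 members, 13 cytosolic and 14 mitochondrial. On either strand, TGATGNAA, a form of the C/EBP-ATF element, occurred in 5 of the 13 cytosolic and 0 of the 14 mitochondrial promoters, and in 3.97% of all promoters in the table. The 5 were Aars, Gars, Iars, Tars and Yars. GGATTA, the homeodomain motif of the OBOX type, occurred in Farsb and Iars2 and in 7.06% of all promoters, and no member held both motifs. These matches are letters in a window and show no binding. The capitals mark TGATGNAA read on the opposite strand. In Aars, the alanyl enzyme (chr8:111033592-111033891, plus strand), they begin 112 bases before the start and again at base 10 after it. In Iars, the isoleucyl enzyme (chr13:49681880-49682179, plus strand), they begin at base 8, and in Gars (chr6:55037751-55038050, plus strand) 30 bases before the start. Fars2 (chr13:36117393-36117692, plus strand) held neither motif.
Aars: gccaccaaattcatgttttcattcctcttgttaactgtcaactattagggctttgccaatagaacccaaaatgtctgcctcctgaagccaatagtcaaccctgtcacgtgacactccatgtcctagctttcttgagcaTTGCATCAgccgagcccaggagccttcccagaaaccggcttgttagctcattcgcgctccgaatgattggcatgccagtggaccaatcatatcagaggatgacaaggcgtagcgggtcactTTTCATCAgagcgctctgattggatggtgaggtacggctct
Iars: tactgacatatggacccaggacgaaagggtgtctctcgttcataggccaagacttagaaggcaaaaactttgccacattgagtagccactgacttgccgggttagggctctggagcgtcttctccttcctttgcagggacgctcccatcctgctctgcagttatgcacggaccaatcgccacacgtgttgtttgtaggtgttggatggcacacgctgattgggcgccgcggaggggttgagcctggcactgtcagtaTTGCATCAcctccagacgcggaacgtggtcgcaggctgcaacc
Gars: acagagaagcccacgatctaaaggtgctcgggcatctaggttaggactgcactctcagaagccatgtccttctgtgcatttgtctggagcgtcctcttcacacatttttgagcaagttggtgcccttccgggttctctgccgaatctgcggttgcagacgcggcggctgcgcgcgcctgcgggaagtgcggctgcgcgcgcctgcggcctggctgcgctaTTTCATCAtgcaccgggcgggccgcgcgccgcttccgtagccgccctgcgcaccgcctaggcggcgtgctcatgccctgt
Fars2: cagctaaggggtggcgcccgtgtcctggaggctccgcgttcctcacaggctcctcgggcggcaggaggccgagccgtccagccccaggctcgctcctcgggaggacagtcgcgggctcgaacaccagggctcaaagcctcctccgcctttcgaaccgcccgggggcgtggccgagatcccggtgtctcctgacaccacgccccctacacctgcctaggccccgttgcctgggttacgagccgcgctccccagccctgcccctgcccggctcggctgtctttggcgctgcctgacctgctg

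Libraries were as labelled with a few exceptions. Obox5 stood at 0 to 1.02 FPKM in Obox KO oocytes and mzKO embryos and at 0.284 and 0.606 in mKO late 2-cell embryos. In Obox-- embryos Obox3 was listed at 0 in all 7 libraries. Obox5 was at 272 to 497 FPKM in Obox-- and 242 to 275 in Obox+- embryos at early 2-cell. Obox5 transcript was thus present in both genotypes there, unlike in mzKO embryos. An exception was the first library labelled arrested mzKO, which listed Obox3 at 59.7 FPKM and Col1a1 at 31.7, with the other 5 fibroblast markers at 0. The FPKM sum of a library ran from 37752 to 535770 and the share of the 45S ribosomal RNA precursor Rn45s from 0.114% to 71.5%. The second early 2-cell library of each genotype listed fewer genes at 1 FPKM or more (7128 in mzKO and 5539 in WT) than the first (9054 in mzKO and 8990 in WT). Summed over 6 oocyte markers, oocyte libraries held 4847 to 11554 FPKM, and over 6 blastocyst markers the arrested mzKO libraries held 5.84 to 13.3, against 2670 to 4007 in WT blastocysts. FPKM is a share of a library, so fewer cells of a type and less RNA per cell cannot be told apart, and read depth is unknown.

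In wild-type embryos 9 members fell between MII and early 2-cell, where 19.5% of all genes did, and 18 rose at late 2-cell, where 34.2% did. The count of 9 ran from 2 to 16 and the count of 18 from 12 to 23 with each library left out in turn. In WT the summed cytosolic FPKM was 330 and 221 in FGO, 324 and 360 in MII, 234 and 54.4 at early 2-cell, 542, 339 and 358 at late 2-cell, 534, 597 and 300.3 at 4-cell, and 705 and 344 in blastocysts. In proportion the early 2-cell libraries differed most, while in FPKM the blastocyst libraries did. The highest sums came from late 2-cell on, though sums of 339, 358, 300.3 and 344 at those stages lay below 360 in MII. The mitochondrial genes other than Lars2 summed to 70.6 to 104 FPKM at late 2-cell and 7.63 to 49.5 at early 2-cell. Qars, the glutaminyl enzyme, ranked first per length in WT FGO (72.9 and 43.9 FPKM). Farsb ranked first in MII oocytes (102 and 114). From early 2-cell to blastocyst the highest group mean in WT of the knockout series was that of Lars2, the mitochondrial leucyl enzyme. This did not hold in the WT controls of the mKO embryos. There Rars led at late 2-cell (mean 103, Lars2 42.5) and Nars in the blastocyst library (425, Lars2 17.5). At the low end, Hars2 was listed at 0 in all 4 WT oocyte libraries, Yars at 0 to 0.0576, and Vars at 0 to 0.311.

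**Figure D1:**
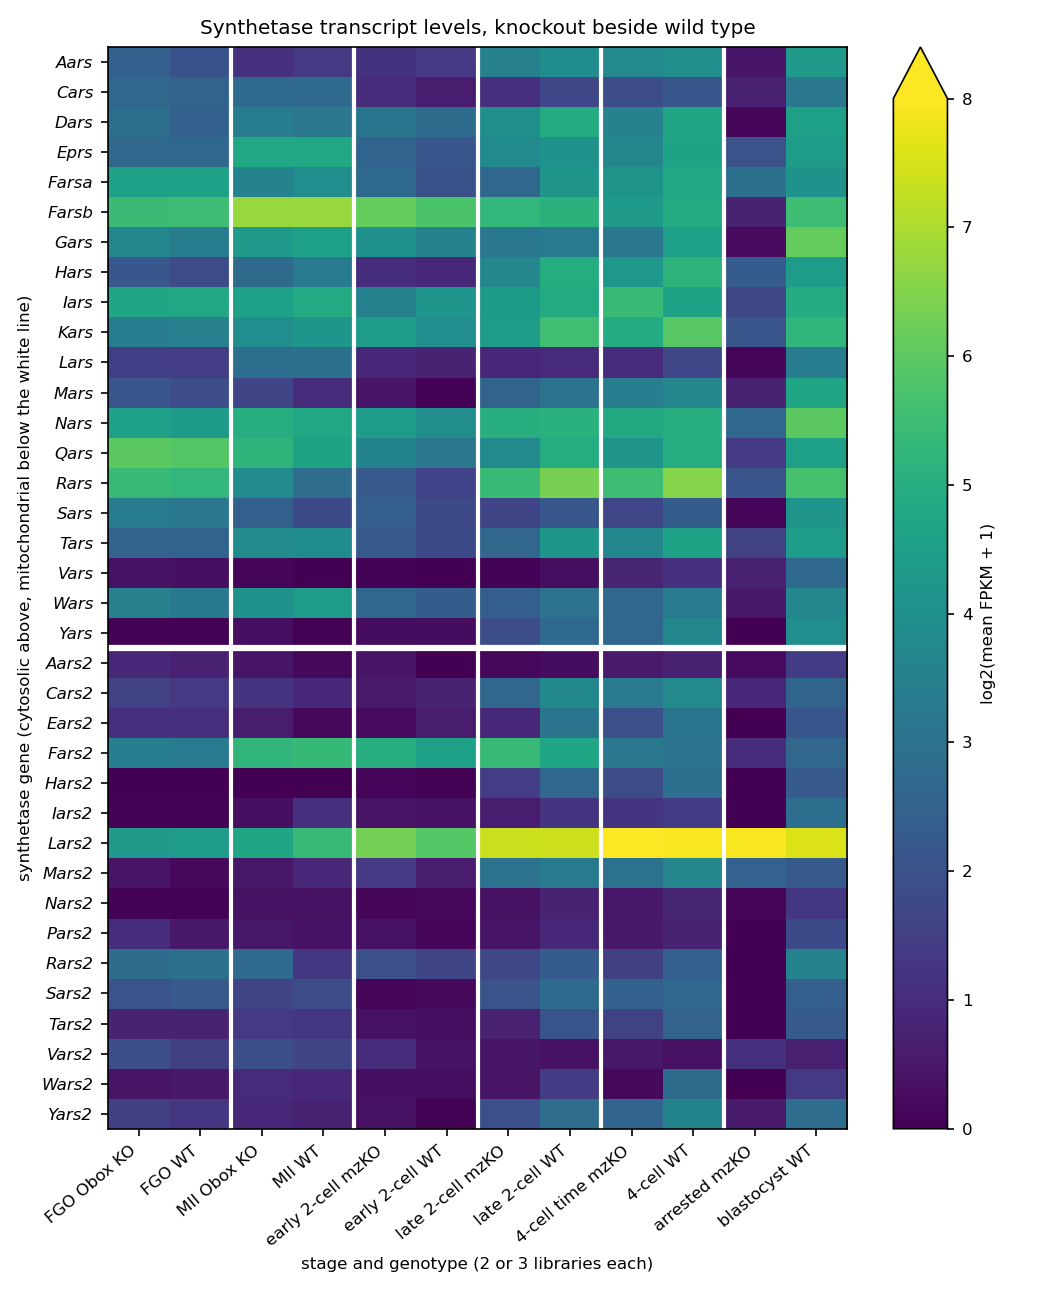
Mean transcript level of each of the 36 synthetase genes as log2(mean FPKM + 1), with knockout left of wild type at each stage; the colour scale is capped at 8. The brightest row from late 2-cell on is Lars2. Farsb is bright in MII oocytes of both genotypes, and Rars is bright in FGO, dark at early 2-cell and bright again from late 2-cell.

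Oocyte maturation changed few synthetase transcripts. A gene is called here when limma's test over all genes of a table gives a Benjamini-Hochberg adjusted p under 0.05 and a change of at least 1 on the log2(FPKM + 1) scale, which understates changes of low genes; each change is given with its standard error. In WT MII against FGO, 3 members rose and 1 fell, against 22.9% and 2.24% of all 13989 genes tested. Eprs had 26.7 and 25.6 FPKM in MII and 7.39 and 3.48 in FGO (log2 change 2.15 ± 0.61, adjusted p = 0.015). Fars2 had 37.7 and 41.8 in MII and 11.4 and 5.99 in FGO (2.13 ± 0.71, adjusted p = 0.029). Lars, the leucyl enzyme, had 7.03 and 6.56 in MII and 2.3 and 1.17 in FGO (1.54 ± 0.46, adjusted p = 0.018). Rars went the other way, with 5.5 and 7.06 in MII and 44.3 and 32.7 in FGO (-2.43 ± 0.67, adjusted p = 0.013). None of these 4 pairs of groups overlapped. The 4 calls fell to 0 without the second FGO library or without either MII library.

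Between MII and early 2-cell, 9 members fell and 0 rose in WT embryos, against 19.5% and 2.09% of all genes. The fallers were 7 cytosolic genes and 2 mitochondrial ones. Eprs had 5.72 and 1.07 FPKM at early 2-cell and 26.7 and 25.6 in MII (-2.86 ± 0.61, adjusted p = 0.0012). Lars fell by 2.27 ± 0.46 on the log2 scale and Cars, the cysteinyl enzyme, by 2.15 ± 0.50. The others were Hars (-2.45), Wars for tryptophan (-2.23), Tars for threonine (-2.17), Farsa (-2.08), Sars2 for serine (-1.66) and Vars2 for valine (-1.27). The cytosolic median was -1.30, the mitochondrial -0.27 and that of all genes -0.44. This count leans on single libraries: 16 fell without the first early 2-cell library, 2 without the second, 5 without the first MII library and 3 without the second.

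At late 2-cell 18 of the 36 synthetase genes rose in WT embryos and 0 fell, against 34.2% and 3.16% of all genes. The cytosolic median was 2.04 and the mitochondrial 1.19, beside 0.72 for all genes. Rars rose most: 116, 60.2 and 66.6 FPKM at late 2-cell against 3.08 and 0.988 at early 2-cell (4.79 ± 0.61, adjusted p = 1.5e-06). Hars had 49.2, 19.3 and 22.1 at late 2-cell against 0.920 and 0.761 at early 2-cell (3.96 ± 0.60). Hars2, listed at 0 in all oocyte libraries, had 9.0, 3.31 and 4.11 against 0.0231 and 0.0443 (2.55 ± 0.35). In 26 of the 36 members every late 2-cell library stood above every early one, as did 47.8% of all genes tested. Of the 8 complex members 6 were among the risers, and Iars and Lars were not: Iars had 28.5, 27.0 and 29.8 FPKM at late 2-cell against 28.2 and 5.69 at early 2-cell, and Lars stayed at 0.362 to 1.48. The other risers included Cars2 (3.03), Mars and Mars2 for methionine (2.90 and 2.66), Yars2 for tyrosine (2.75), Aars (2.57) and Sars2 (2.56). With every library scaled to its median gene, 14 members rose and 1 fell.

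After the 2-cell stage fewer synthetase genes changed. At 4-cell against late 2-cell in WT, Wars2, the mitochondrial tryptophanyl enzyme, rose (8.53, 7.99 and 1.60 FPKM against 3.15, 0.750 and 0.893; 1.34 ± 0.38, adjusted p = 0.019). Fars2 fell (8.56, 6.97 and 6.14 against 24.0, 24.7 and 27.4; -1.69 ± 0.58, adjusted p = 0.047). Among all genes 1.77% rose and 11.3% fell. Neither call remained without WT 4-cell library 1 or 2 or late 2-cell library 2 or 3, and 1 did without late 2-cell library 1. In WT blastocysts against 4-cell, 6 members rose and 2 fell, against 10.5% and 17.7% of all genes. Gars had 85.8 and 51.3 FPKM in blastocysts and 21.5, 25.7 and 17.6 at 4-cell (1.59 ± 0.53, adjusted p = 0.023). The valyl gene Vars had 6.89 and 4.31 in blastocysts and 1.29, 1.87 and 0.385 at 4-cell (1.63 ± 0.31, adjusted p = 2e-04). Sars (1.88), Lars (1.75), Iars2 (1.44) and Pars2 for proline (1.02) also rose, and Mars2 (-1.57) and Wars2 (-1.32) fell. The split depends on scaling: 0 rose and 4 fell with Rn45s left out, and 9 rose and 0 fell with median scaling. The count was 5 without 4-cell library 1 or 2, and 3 without blastocyst library 1.

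No synthetase transcript was called in Obox KO oocytes or in mzKO embryos at early 2-cell. Obox KO against WT FGO gave 0 members (all genes, 0.00715% higher and 0.0643% lower), and Obox KO against WT MII gave 0 (0% and 0.0572%). mzKO against WT at early 2-cell gave 0 (0% and 0.4%). In none of the 3 did a member reach an unadjusted p under 0.05 in limma. Qars, the highest member in FGO, had 57.7 and 68.1 FPKM in Obox KO and 72.9 and 43.9 in WT, and Farsb, the highest in MII, had 103 and 113 in Obox KO and 102 and 114 in WT. The smallest p among members were those of Pars2 in FGO (0.59 ± 0.30, adjusted p = 1), Iars2 in MII (-0.73 ± 0.40, adjusted p = 1) and Sars at early 2-cell (0.74 ± 0.59, adjusted p = 1). At early 2-cell 30 of 36 members were higher in mzKO, with a median of 0.39 beside 0.21 for all genes.

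At late 2-cell, the stage at which the genes rise in WT, 33 of 36 synthetase transcripts were lower in mzKO embryos than in WT, and 3 mitochondrial genes fell past the threshold. Called lower were 10.7% of all genes and called higher 4.74%, against 3 and 0 members. Ears2 had 1.77, 0.256 and 0.610 FPKM in mzKO and 13.6, 5.66 and 3.31 in WT (-2.08 ± 0.47, adjusted p = 0.0023). Tars2 had 0.250, 0.800 and 0.939 in mzKO and 4.61, 1.87 and 3.20 in WT (-1.32 ± 0.36, adjusted p = 0.01). Hars2 had 2.36, 1.27 and 1.49 in mzKO and 9.0, 3.31 and 4.11 in WT (-1.18 ± 0.32, adjusted p = 0.0098). In all 3 the genotypes did not overlap. The medians were -0.72 for cytosolic and -0.66 for mitochondrial members, beside 0.01 for all genes. With median scaling the members' median stood 0.55 below that of all genes, and with Rn45s left out 0.95 below.

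**Figure D2:**
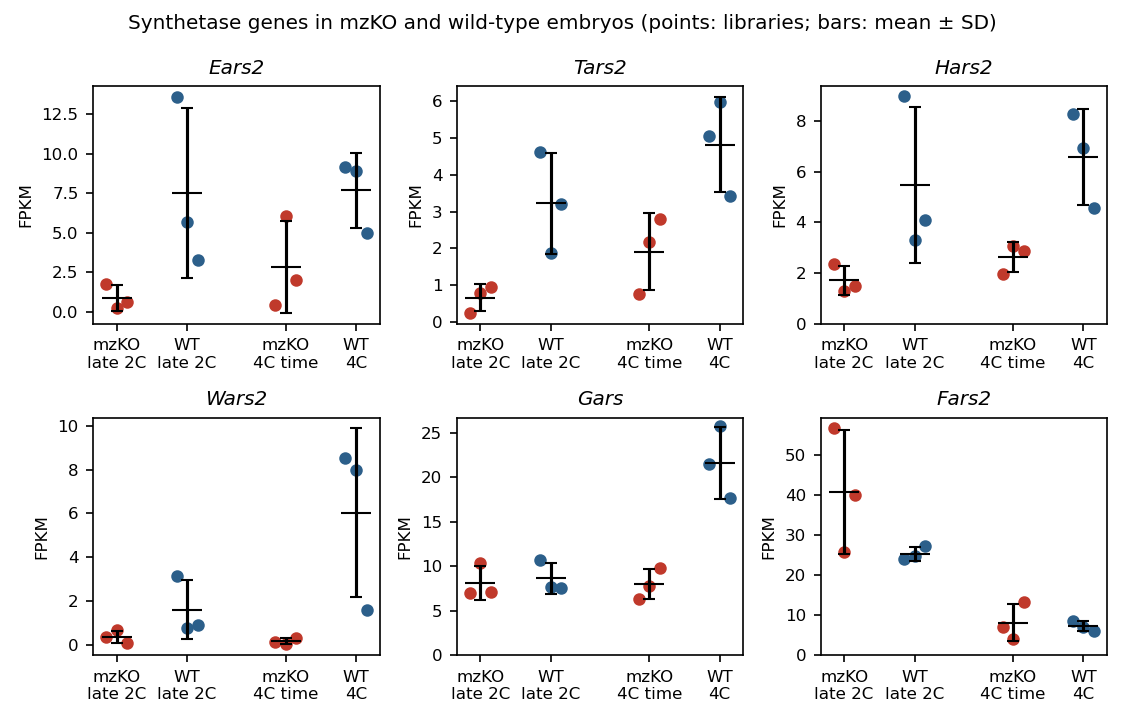
FPKM of 6 synthetase genes in mzKO (red) and WT (blue) libraries at late 2-cell (late 2C) and at the 4-cell time (4C); points are libraries and bars mean ± SD. Ears2, Tars2 and Hars2 sit lower in mzKO than in WT at late 2-cell; Wars2 stays at or under 0.306 FPKM in mzKO at the 4-cell time.

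Of the cytosolic genes none passed the test. Rars had 57.6, 33.2 and 32.8 FPKM in mzKO late 2-cell embryos and 116, 60.2 and 66.6 in WT (-0.95 ± 0.55, adjusted p = 0.25). Tars had 3.54, 7.61 and 4.39 in mzKO and 23.1, 10.4 and 20.4 in WT (-1.60 ± 0.60, adjusted p = 0.063). Qars had 13.8, 11.2 and 13.5 in mzKO and 37.3, 25.4 and 27.5 in WT (-1.15 ± 0.56, adjusted p = 0.16). In 17 of the 36 members every mzKO library stood below every WT library, as did 23.4% of all genes tested. Fars2 was among the few members higher in mzKO (56.8, 25.8 and 40.1 FPKM against 24.0, 24.7 and 27.4 in WT), without a call (0.60 ± 0.58, adjusted p = 0.51). The 3 calls fell to 1 without WT library 1 or with median scaling, while Ears2 was called in every alternative and with each library left out.

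Marker genes differed between the same libraries. Amhr2 stood at 0.373, 2.90 and 0.134 FPKM in mzKO late 2-cell embryos and at 17.7, 11.9 and 18.1 in WT. The sum over the 6 cumulus markers was 1.30 to 3.35 in mzKO and 12.3 to 18.7 in WT, and at the 4-cell time 2.94 to 11.8 in mzKO and 22.5 to 23.8 in WT. At late 2-cell that difference was one of Amhr2. At other stages in WT, Amhr2 was listed at 0 in MII libraries and at 0.459 and 0.268 FPKM at early 2-cell. It stood at 23.6, 22.2 and 22.5 at 4-cell and at 0.868 and 0.622 in blastocysts. Cyp19a1 had 1.61, 0.410 and 0.886 FPKM in mzKO and 0.774, 0.390 and 0.474 in WT, and Fshr had 0.992, 0.0349 and 0.0846 in mzKO and was listed at 0 in all 3 WT libraries. Inha was listed at 0 in all 6, and Foxl2 at 0 in 5 of them. Over 6 oocyte markers the late 2-cell sums were 840 to 1567 in mzKO and 507 to 1025 in WT. The part of these differences in the synthetase result was not tested.

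At the 4-cell time 5 members fell in mzKO embryos and 0 rose, against 10.4% and 14.2% of all genes. Wars2 fell most, with 0.134, 0.0334 and 0.306 FPKM in mzKO against 8.53, 7.99 and 1.60 in WT (-2.40 ± 0.38, adjusted p = 6.1e-05). Gars, which serves cytosol and mitochondria, had 6.34, 7.80 and 9.79 in mzKO and 21.5, 25.7 and 17.6 in WT (-1.34 ± 0.47, adjusted p = 0.036). Hars2 had 1.97, 3.05 and 2.88 in mzKO and 8.30, 6.93 and 4.56 in WT (-1.04 ± 0.32, adjusted p = 0.016). Tars2 had 0.753, 2.16 and 2.80 in mzKO and 5.06, 5.99 and 3.43 in WT (-1.05 ± 0.36, adjusted p = 0.029). Those 4 genes did not overlap between genotypes, while Ears2 did (0.450, 6.09 and 2.03 against 9.18, 8.91 and 4.98 in WT; -1.43 ± 0.47, adjusted p = 0.024). Members had a median of -0.64 (cytosolic) and -0.41 (mitochondrial), beside 0.16 for all genes, and 32 of 36 were lower in mzKO. The count was 1 without WT library 1 or 2, 2 without mzKO library 1 and 3 without mzKO library 3, and 1 with a pseudocount of 0.1 or with Rn45s left out. Wars2 was called in every one of these settings.

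**Figure D3:**
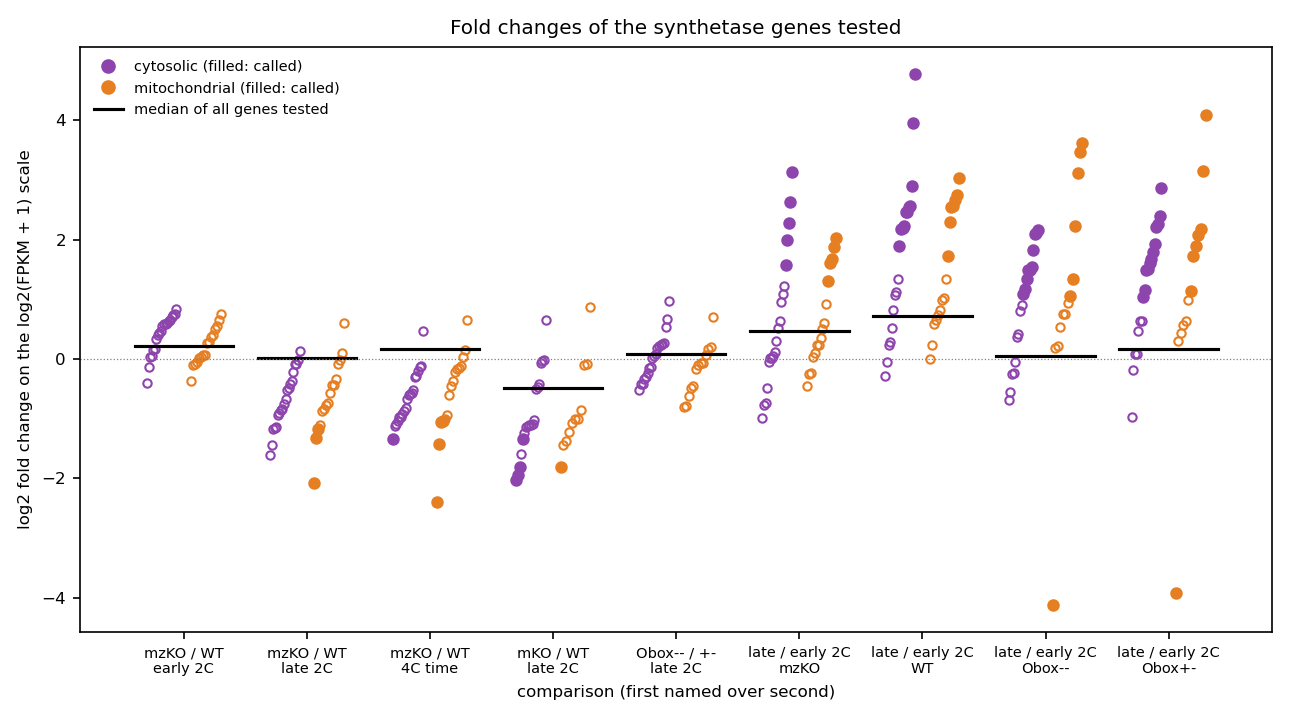
Log2 fold change of each tested synthetase gene in 9 comparisons, cytosolic purple and mitochondrial orange, filled where called; black bars mark the median of all genes tested in that comparison. Most points lie below the black bar for mzKO over WT at late 2-cell and at the 4-cell time, and above it for late over early 2-cell in WT, Obox-- and Obox+- embryos.

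Some members also rose at late 2-cell within the mutant. From early to late 2-cell 10 members rose in mzKO embryos, all of them among the 18 that rose in WT (55.6% of the 18), against 18% of all genes in mzKO. Rars had 57.6, 33.2 and 32.8 FPKM at late 2-cell and 5.51 and 2.33 at early 2-cell in mzKO (3.13 ± 0.61, adjusted p = 0.00069). Hars had 15.3, 11.5 and 9.06 against 1.38 and 0.747 (2.64 ± 0.60, adjusted p = 0.0024). The others were Aars, Cars2, Mars, Sars2, Mars2, Yars2, Yars and Hars2 (1.30 to 2.28). Members had a median of 0.43 in mzKO, beside 0.46 for all genes. The test of the difference itself, mzKO over WT at late 2-cell minus the same at early 2-cell, was negative in all 36 members (median -0.93, all genes -0.21) and called none, with 5 members at an unadjusted p under 0.05 (all genes called, 0.465% positive and 1.42% negative). Hars2 had the smallest p (-1.24 ± 0.50, adjusted p = 0.24). Without the first WT early 2-cell library 2 members were called in that difference. The count of 10 was 4 without the second mzKO early 2-cell library, 6 without the second mzKO late 2-cell library and 5 without both second early 2-cell libraries. With median scaling 4 members rose and 2 fell.

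From late 2-cell to the 4-cell time, Fars2 was the only member called in mzKO embryos (7.08, 4.04 and 13.2 FPKM at the 4-cell time against 56.8, 25.8 and 40.1 at late 2-cell; -2.26 ± 0.58, adjusted p = 0.017), where 1.68% of all genes rose and 4.44% fell. The call was lost without mzKO 4-cell library 2 or mzKO late 2-cell library 1 or 3. In the change of the mzKO effect between these stages Wars2 had the smallest p (-1.55 ± 0.54, adjusted p = 0.19) and no member was called (0.951% of all genes positive, 0.222% negative), except that 1 was without WT 4-cell library 3. In the later arrested mzKO embryos 27 members were called lower than at the 4-cell time, where 60.7% of all genes were (0.801% higher), with 55.4% and 71.5% of the FPKM in Rn45s. Rars (-3.80), Farsb (-3.64), Iars (-3.56), Kars for lysine (-3.43), Dars (-3.42), Aars (-3.26), Qars (-2.96) and Gars (-2.94) fell most. With Rn45s left out 5 members rose and 15 fell, and with median scaling 5 rose and 13 fell, so the direction of single genes in these libraries depends on the scaling.

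The alpha and beta subunits of cytosolic phenylalanyl-tRNA synthetase, which are needed in equal number in the enzyme, had transcripts at unequal levels. The Farsb over Farsa ratio of FPKM in WT was 1.41 and 3.65 in FGO, 7.48 and 7.98 in MII, 16.7 and 18.1 at early 2-cell, 1.57 to 3.28 at late 2-cell and 1.04 to 1.13 at 4-cell. In WT blastocysts it was 5.28 and 1.17. At late 2-cell the ratio was 3.16 to 15.3 in mzKO embryos and 1.57 to 3.28 in WT, so the genotypes overlapped. High ratios at late 2-cell were not limited to mzKO. With siCtrl it was 11.0 in the zygote-injected library and 7.82, 12.9 and 7.18 in parthenotes. At the 4-cell time the ratio was 0.824 to 2.08 in mzKO and 1.04 to 1.13 in WT. Farsa had 3.36, 8.02 and 4.77 FPKM in mzKO late 2-cell embryos and 28.5, 9.98 and 12.9 in WT (-1.44 ± 0.62, adjusted p = 0.11). Farsb had 51.3, 25.3 and 38.9 in mzKO and 44.8, 32.7 and 26.4 in WT (0.13 ± 0.54, adjusted p = 0.91). The ratio was also high at early 2-cell in Obox-- (5.40 to 8.64) and Obox+- embryos (10.1 to 18.1), and it was 2.26 to 5.13 in Obox-- and 1.13 to 3.94 in Obox+- at late 2-cell. The ratios themselves were not tested.

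**Figure D4:**
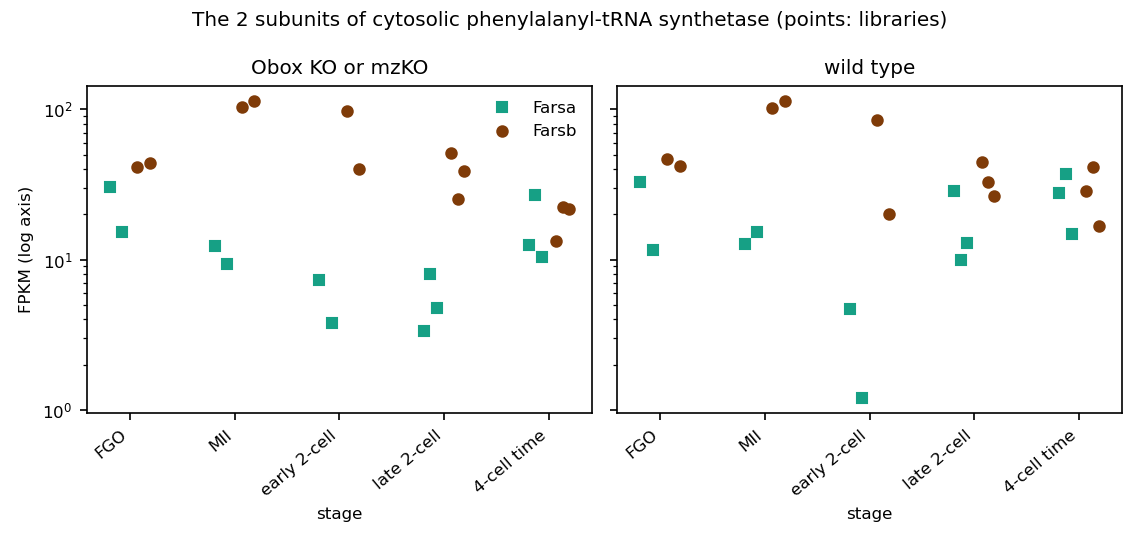
FPKM of Farsa (squares) and Farsb (circles) per library on a log axis, Obox KO or mzKO on the left and wild type on the right, from FGO to the 4-cell time. The gap is widest in WT early 2-cell libraries, where the ratio is 16.7 and 18.1, and has closed at 4-cell.

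Embryos without maternal Obox gave 5 lower members at late 2-cell. Of 30 members tested (Vars, Aars2, Iars2, Nars2, Pars2 and Vars2 did not reach 1 FPKM in 2 libraries), 5 fell and 0 rose, against 11.5% and 1.44% of 10356 genes. Rars had 27.8 and 21.2 FPKM in mKO and 101 and 104 in WT (-2.04 ± 0.33, adjusted p = 0.021). Hars had 6.94 and 3.65 in mKO and 22.9 and 21.8 in WT (-1.94 ± 0.39, adjusted p = 0.029). Tars had 4.52 and 2.54 in mKO and 12.9 and 16.4 in WT (-1.82 ± 0.39, adjusted p = 0.033). Yars2 had 1.10 and 0.914 in mKO and 7.32 and 4.94 in WT (-1.81 ± 0.40, adjusted p = 0.034). Nars, the asparaginyl enzyme, had 13.6 and 21.0 in mKO and 44.4 and 44.9 in WT (-1.35 ± 0.35, adjusted p = 0.049). Iars stood higher in mKO (58.2 and 41.8) than in WT (33.5 and 28.8), without a call. Over 6 2-cell markers the sums were 185 to 754 in mKO and 61.4 to 141 in WT, and over 6 cumulus markers 8.06 to 9.91 in mKO and 17.4 to 19.9 in WT. Amhr2 made up most of the cumulus sum (8.06 and 9.36 in mKO, 17.0 and 19.1 in WT), and Fshr, Foxl2 and Inha were listed at 0 in all 4 libraries. The part of either list in the result was not tested. The cytosolic and mitochondrial medians were -1.10 and -1.01 beside -0.48 for all genes, and the FPKM sums were 184635 and 180116 in mKO and 293639 and 291425 in WT. The fit has 2 residual degrees of freedom: 0 members were called without either WT library, with median scaling, with Rn45s left out or with no filter, 15 without the first mKO library and 8 without the second.

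In mKO blastocysts, with 1 library per genotype and no test, cytosolic genes were lower (median -0.58, 16 of 20 lower) and mitochondrial genes were not (median 0.23, 3 of 15 lower), beside 0.16 for all 9613 genes at 1 FPKM or more, of which 3.81% were at least 1 higher and 2.07% at least 1 lower. The 4 members at least 1 lower in mKO were Gars (-1.20), Wars (-1.11), Nars (-1.07) and Rars (-1.05). Nars had 202 FPKM in the mKO blastocyst library and 425 in WT, and Rars 127 in mKO and 264 in WT. All 12 genes of a list for the ATF4 pathway were lower in the same mKO library, among them Trib3 (7.14 FPKM in mKO and 67.9 in WT), Chac1 (0.299 in mKO and 17.6 in WT) and Sesn2 (13.7 in mKO and 20.8 in WT). The list was not filtered by level: Slc7a11 (0.0250 in mKO and 0.0526 in WT) and Vldlr (0.0653 in mKO and 0.282 in WT) were under 1 FPKM in both libraries. The share of all genes lower by any amount is not given here. The summed cytosolic FPKM was 1469 in mKO and 2369 in WT, while the WT and water blastocyst libraries of 2 other tables, normalized separately, had 344 to 805. The part of the WT library in the difference was not tested.

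Obox-- and Obox+- embryos differed in 1 synthetase gene at early 2-cell and in none at late 2-cell. Of 32 members tested (Lars, Hars2, Pars2 and Vars2 were not), Lars2 was called at early 2-cell, with 98.2, 133 and 127 FPKM in Obox-- and 365, 223 and 254 in Obox+- (-1.21 ± 0.21, adjusted p = 0.0067). Among all 11735 genes 0.119% were higher and 0.341% lower. The Rn45s share of the same libraries was 3.23% to 4.66% in Obox-- and 5.99% to 7.43% in Obox+-, and its part in the Lars2 difference was not tested. The call was lost without the first Obox+- library. At late 2-cell (0.23% of all genes higher, 0.401% lower), 5 members had an unadjusted p under 0.05. Vars led them with 1.53, 1.88, 4.12 and 2.49 FPKM in Obox-- and 0.566, 0.581 and 1.06 in Obox+- (0.97 ± 0.27, adjusted p = 0.11), groups that did not overlap. Wars2 had 2.48, 1.26, 1.08 and 0.398 in Obox-- and 2.42, 2.47 and 3.46 in Obox+- (-0.78 ± 0.28, adjusted p = 0.22), groups that overlapped.

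Both genotypes showed the late 2-cell rise. In Obox-- embryos 16 members rose and 1 fell from early to late 2-cell, against 25.8% and 24.8% of all genes. In Obox+- embryos 19 rose and 1 fell, against 28% and 21.3%. The 2 genotypes shared 14 risers (87.5% of the 16 and 73.7% of the 19), and 13 of the Obox+- risers were also among the 18 of the WT table (68.4% of the 19, 72.2% of the 18). Yars2 had 11.5, 10.3, 13.7 and 14.4 FPKM at late 2-cell and 0.136, 0 and 0.144 at early 2-cell in Obox-- (3.61 ± 0.26). In Obox+- it had 14.5, 17.4 and 22.4 at late 2-cell and 0, 0.353 and 0 at early 2-cell (4.09 ± 0.28). After Yars2 the largest rises were those of Lars2 (3.48), Sars2 (3.12), Cars2 (2.23), Yars (2.17), Tars (2.11), Aars (2.1) and Mars (1.82) in Obox--, and of Cars2 (3.15), Tars (2.87), Mars (2.4), Dars (2.26), Yars (2.22), Mars2 (2.19) and Lars2 (2.07) in Obox+-. Rars, the largest riser of the WT table, was not called here: 6.02, 6.38, 5.19 and 4.25 at late 2-cell against 5.08, 8.33 and 6.85 at early 2-cell in Obox--, and 7.57, 4.73 and 6.41 against 2.81, 7.07 and 8.95 in Obox+-. The faller in both was Fars2.

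Fars2 fell at late 2-cell in Obox-- and Obox+- embryos. In Obox-- embryos it had 0.750, 0.894, 0.420 and 0.139 FPKM at late 2-cell and 38.6, 25.8 and 16.7 at early 2-cell (-4.13 ± 0.33, adjusted p = 7.2e-09). In Obox+- embryos it had 1.09, 1.07 and 0.144 at late 2-cell and 23.3, 33.0 and 20.1 at early 2-cell (-3.93 ± 0.35, adjusted p = 3.8e-08). In WT and mzKO embryos of the knockout series it fell at 4-cell, as given above. In zygote-injected control embryos it was 36.3 and 48.1 at early 2-cell, 58.3 in the late 2-cell library and 1.15 to 2.61 at 4-cell. Control late 2-cell parthenotes had 24.0, 30.8 and 34.4.

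None of the 6 replicated knockdowns gave a call among the synthetase genes. With 35 members tested (Aars2 was not) over 12881 genes, 0 were called and 0 had an unadjusted p under 0.05 in limma for siObox12mix, siObox5 and siObox7 in parthenotes, siObox4 at early 2-cell, and siObox6 and siObox8 at 4-cell. The background was also low: 0.0233% of genes lower with siObox12mix, 0.0155% higher and 0.00776% lower with siObox5, 0.00776% lower with siObox7 and with siObox4, 0.0621% higher and 0.00776% lower with siObox6, and 0% in the remaining directions and with siObox8. Target transcripts are given for 2 knockdowns and were lower in both. Obox5 was at 2.31 and 9.30 FPKM with siObox5 and 367 to 818 with siCtrl. Obox6 was at 13.2 and 26.5 with siObox6 and 164 to 567 with siCtrl. Target levels of the other knockdowns are not given here. Across the 6, member medians ran from -0.08 to 0.39 beside -0.10 to 0.11 for all genes. The fit held no batch term, and libraries of a group differed widely. At 4-cell the summed cytosolic FPKM was 462, 672 and 271 with siCtrl, 403 and 739 with siObox6, and 617 and 260 with siObox8. In the deposited order siCtrl library 2 (672), siObox6 library 2 (739) and siObox8 library 1 (617) stood together. So did siCtrl library 3 (271) and siObox8 library 2 (260), and within each set the sums were close. The labels name no batch, and a pairing across numbers was not tested. The spread counted as error, so missing calls here say little. Dars, the aspartyl enzyme, had the smallest p under siObox7 (-0.80 ± 0.48, adjusted p = 1) and under siObox5 (-0.59 ± 0.48, adjusted p = 1), Iars under siObox12mix (0.83 ± 0.60, adjusted p = 1). Nars2 had it under siObox4 (0.39 ± 0.27, adjusted p = 1) and siObox8 (-0.38 ± 0.25, adjusted p = 1), Iars2 under siObox6 (0.68 ± 0.36, adjusted p = 1). With siObox3, 1 library each at late 2-cell, 22 of 29 members were lower than with siCtrl, with a median of -0.32 beside -0.20 for all genes (1.96% at least 1 higher, 7.59% at least 1 lower).

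In ESCs the isoleucyl gene Iars was called with Obox3 in Nr5a2 knockout cells, and no other call was made among the members. In the first ESC table it had 30.0, 48.6, 53.6 and 36.4 FPKM with Obox3, and 36.2, 41.2, 53.5 and 84.6 with Obox5, against 22.5, 28.4, 35.0, 30.8 and 21.8 with GFP. The Obox5 libraries all lay above the GFP libraries, and the Obox3 libraries overlapped with them. Against the GFP library of the same number, which was found to pair libraries in this table, Iars was higher in 4 of 4 with Obox3 and in 4 of 4 with Obox5. With the replicate block it changed by 0.50 ± 0.23 with Obox3 (adjusted p = 0.15) and by 0.80 ± 0.23 with Obox5 (adjusted p = 0.035), the second past the p threshold and short of a log2 change of 1. No member was called with Obox3 (Iars 0.58 ± 0.36, adjusted p = 0.64; all genes 2.82% higher, 0.197% lower) or with Obox5 (Iars 0.88 ± 0.36, adjusted p = 0.33; all genes 2.08% higher, 0.0983% lower). Vars2 had the smallest p with Obox3 (-0.46 ± 0.23, adjusted p = 0.45). At an unadjusted p under 0.05 there were 0 members with Obox3 and 1, Iars, with Obox5.

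In Nr5a2 knockout ESCs Iars rose with Obox3, with 146 and 142 FPKM against 42.7 and 37.7 with GFP (1.82 ± 0.39, adjusted p = 0.01). It was the only member called, where 3.29% of 11782 genes were higher and 0.272% lower, and the call was lost without any 1 of the 4 libraries. With Obox5 it had 103 and 94.4 in Nr5a2 KO cells, also above GFP, without a call (1.27 ± 0.39, adjusted p = 0.21; all genes 0.934% higher, 0.00849% lower). In Nr5a2 WT cells Iars had 64.0 and 72.8 with Obox3 and 94.4 and 68.4 with Obox5, against 65.6 and 45.0 with GFP, and no member was called for Obox3 (all genes 0.755% higher, 0.17% lower) or Obox5 (0.645% and 0.017%). The Obox3 effect on Iars in Nr5a2 KO minus that in Nr5a2 WT cells was 1.49 ± 0.55 (adjusted p = 0.76), and no member was called in that difference (0.0679% of all genes positive, 0.034% negative) or in the one for Obox5 (0.00849% and 0%). With Obox3 in Nr5a2 WT cells 35 of 36 members were lower than with GFP, with a median of -0.71 beside -0.48 for all genes, and 6 had an unadjusted p under 0.05, led by Yars2 (-1.23 ± 0.51, adjusted p = 0.23). Median scaling moved the all-gene median of that comparison by 0.45. Between Nr5a2 KO and Nr5a2 WT cells with GFP no member was called (all genes 0.823% higher, 1.22% lower), and Dars had the smallest p (-0.98 ± 0.39, adjusted p = 0.27).

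**Figure D5:**
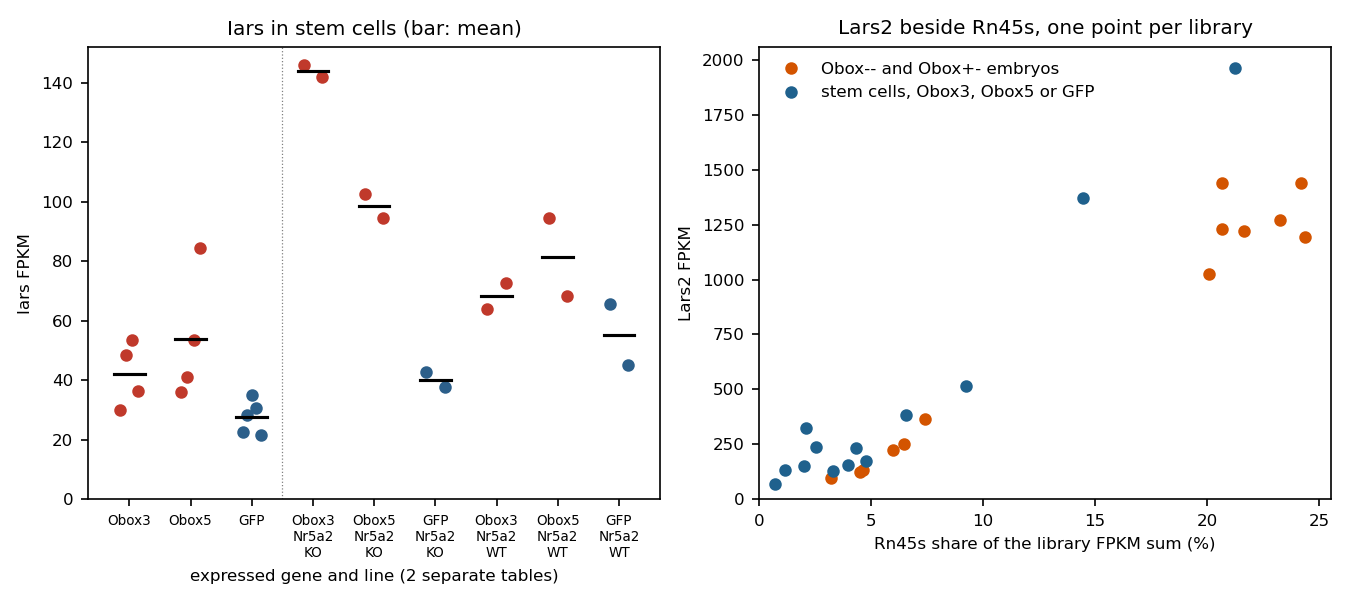
Left, Iars FPKM per ESC library (red with Obox3 or Obox5, blue with GFP; bar, mean), with the 2 tables split by the dotted line. Right, Lars2 FPKM against the Rn45s share of each library in the Obox-- and Obox+- embryo table and the first ESC table. Iars is highest with Obox3 in Nr5a2 KO cells (146 and 142), and the libraries with Lars2 above 1000 FPKM all have an Rn45s share of 14.4% or more.

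Lars2 was the most abundant member in many libraries, and in the Obox-- and Obox+- table and the first ESC table its highest values came with the highest Rn45s shares. The arrested mzKO libraries, with Rn45s at 55.4% and 71.5%, had Lars2 at 246 and 235 FPKM. Their FPKM sums were low (74531 and 37752, against 186820 in Obox-- late 2-cell library 1). Lars2 as a share of the sum was not compared. The order of Lars2 did not always follow that of Rn45s: among ESCs with GFP, library 1 had 155 FPKM at an Rn45s share of 3.96% and library 3 had 323 at 2.09%. In late 2-cell embryos Lars2 had 1438, 1220, 1228 and 1440 FPKM in Obox-- and 1023, 1195 and 1273 in Obox+-, with Rn45s at 20.7% to 24.2% in Obox-- and 20.1% to 24.4% in Obox+-. At early 2-cell the values were those given above, with Rn45s at or under 7.43%. Among ESCs with GFP it ran from 133 to 1963 FPKM, 14.7-fold, with an Rn45s share of 1.18% to 21.2%. Lars2 was called higher at late than at early 2-cell in both Obox-- (3.48 ± 0.20) and Obox+- embryos (2.07 ± 0.21), and the genotype difference of that change was not called (1.40 ± 0.29, adjusted p = 0.073; all genes 0.0341% positive, 0.0597% negative). The part of Rn45s in these values was not tested.

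Overexpression in mzKO embryos was measured in single libraries without a test. The Obox157OE blastocyst library placed 27 of 36 members within the range of the 2 WT blastocyst libraries, with a median difference of 0.16 beside 0.25 for all genes (1.58% at least 1 higher, 1.63% at least 1 lower). Ears2 was at 5.81 FPKM there, against 2.59 and 4.19 in WT blastocysts, and Tars2 at 9.94, against 5.05 and 2.5. In the Obox3OE blastocyst library the median was -0.57 beside -0.44 for all genes (0.816% and 11.3%), 6 members were at least 1 lower and 11 lay within the WT range. The 2 WT libraries themselves differed, with summed cytosolic FPKM of 705 and 344, beside 606 in Obox157OE and 306 in Obox3OE. Their FPKM sums were 423998 and 328709, beside 421357 in Obox157OE and 318568 in Obox3OE. Obox157OE thus stood nearer to WT library 1 and Obox3OE nearer to WT library 2. The part of this in the medians and ranges was not tested. In the Obox4OE library, from embryos still at 2-cell, 32 members were at least 1 lower than in WT blastocysts, with a median of -2.51 beside -1.64 for all genes (3.2% and 72.6%). The Obox4OE and WT libraries differ in stage as well as in treatment.

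In wild-type embryos overexpressing Obox genes, also single libraries, member medians lay within 0.15 of those of all genes at late 2-cell and up to 0.29 from them in blastocysts. At late 2-cell their medians against water were -0.42 with Obox1 (all genes -0.31; 2.41% at least 1 higher, 14.3% lower), 0.03 with Obox2 (-0.12; 0.945%, 2.8%), -0.20 with Obox3 (-0.18; 2.98%, 3.11%) and -0.02 with Obox5 (-0.02; 3.38%, 2.23%). In blastocysts they were -1.14 with Obox1 (-0.87; 6.58%, 42.6%), 0.22 with Obox2 (0.09; 3.6%, 1.65%), -0.39 with Obox3 (-0.10; 1.45%, 4.79%) and 0.29 with Obox5 (0.07; 2.76%, 1.91%). Of the 20 cytosolic members in blastocysts, 19 were lower with Obox3 than with water and 18 were higher with Obox5. With Obox1 20 of 35 members were at least 1 lower in the blastocyst library, whose 2-cell marker sum was 427 FPKM, against 0.240 with water; its part in the result was not tested.

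Among other genes of tRNA charging and translation elongation, 12 of 25 tested rose and 0 fell at late 2-cell against early 2-cell in WT, where 34.2% and 3.16% of all genes did. The risers included Tufm, the mitochondrial elongation factor (3.94 ± 0.56), Yrdc, which modifies tRNA (3.25 ± 0.58), Eef1g (3.15 ± 0.70) and Aimp2, a scaffold of the multi-synthetase complex (3.12 ± 0.67). At late 2-cell 4 fell in mzKO embryos against WT and 0 rose, beside 10.7% and 4.74% of all genes. Tufm had 3.11, 6.99 and 3.63 FPKM in mzKO and 30.0, 12.9 and 11.7 in WT (-1.72 ± 0.50, adjusted p = 0.016). The others were Aarsd1, an editing enzyme for mischarged tRNA (-1.84 ± 0.52), Dtd1, which removes D-amino acids from tRNA (-1.73 ± 0.36), and Xpot, the tRNA exporter (-1.29 ± 0.34). At the 4-cell time 5 fell and 0 rose, beside 10.4% and 14.2% of all genes: Aarsd1 (-2.55), Eef1e1, a complex scaffold (-2.23), Eef1d (-1.53), Tufm (-1.51) and Dtd1 (-1.51). In mKO embryos 4 of 23 fell, beside 11.5% of all genes, namely Aimp1 (-3.03), Trnt1, which adds the CCA end (-2.05), Gfm1 (-1.93) and Eef1e1 (-1.66). From early to late 2-cell 5 of 23 rose and 5 fell in Obox-- embryos, beside 25.8% and 24.8% of all genes. In Obox+- embryos 7 rose and 3 fell, beside 28% and 21.3%, with Tufm rising most in both (5.84 ± 0.29 and 5.51 ± 0.31) and Eef1b2 falling (-3.64 ± 0.29 and -2.85 ± 0.30). The list gave 0 calls in the knockdowns and in ESCs.

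Genes of the ATF4 pathway moved both ways in mzKO embryos. At late 2-cell 2 of 11 tested fell against WT, the serine synthesis genes Phgdh (2.16, 2.89 and 3.76 FPKM in mzKO against 71.4, 19.5 and 12.2 in WT; -2.79 ± 0.57) and Psat1 (-2.37 ± 0.49), and 0 rose, beside 10.7% of all genes lower and 4.74% higher. At the 4-cell time the same 2 fell (-4.80 ± 0.57 and -3.31 ± 0.49) and 4 rose, beside 10.4% lower and 14.2% higher. Ddit3, a stress transcription factor, had 37.5, 51.1 and 43.7 FPKM in mzKO and 3.14, 2.42 and 4.35 in WT (3.4 ± 0.68, adjusted p = 0.00064). Chac1 (1.99 ± 0.42), Atf3 (1.82 ± 0.62) and Trib3 (1.11 ± 0.39) rose as well. In mKO embryos Phgdh (-3.34 ± 0.41) and Psat1 (-1.86 ± 0.37) fell as well, of 10 tested, beside 11.5% of all genes. In WT embryos 6 of the 11 rose at late 2-cell, beside 34.2% of all genes, led by Psat1 (4.38 ± 0.55) and Phgdh (3.69 ± 0.64). Of the 5 synthetase genes with TGATGNAA in the promoter, Gars fell in mzKO at the 4-cell time, and the changes of Aars (-0.14 ± 0.44), Iars (0.47 ± 0.58), Tars (-1.09 ± 0.60) and Yars (-1.04 ± 0.48) did not pass.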

How the data were processed

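RNA was measured by Smart-seq2 in 107 samples, and the other 28 samples of the series are not analysed here. The authors deposited 7 tables of FPKM. Per the submitters' processing notes the build is mm9 and the tools include Trim Galore 0.6.6, HISAT2 2.2.1 and StringTie 2.1.2, with no roles given. Read depth is unknown: FPKM gave no whole reads when the ratios of low values were checked. In the tables with names turned into dates 27 such names were left out, leaving 24116. The tables were treated as normalized separately and tested apart.

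Values were taken as log2(FPKM + 1). Genes at 1 FPKM or more in at least 2 libraries of the fit were tested with limma 3.58.1 (R 4.3.3, intensity trend and robust variance), with all replicated groups of a table in 1 fit, which gave 2 to 16 residual degrees of freedom. P-values were adjusted by Benjamini-Hochberg over all genes tested, and a call needed an adjusted p under 0.05 and a log2 change of at least 1. The fit was tested on simulated data in 1 comparison per table: it recovered most of the changed genes in each table except that of mKO embryos, where it called none, so calls and missing calls there say little. Recovery is not given here by gene level or size of change, and that of low members was not tested. Comparisons of single libraries have no test. Called members are named, up to 8 each way by size, and otherwise up to 3 with the smallest p; the tRNA pathway (28 names) and ATF4 (12 names) lists are named by their called genes, up to 4 each way. The members, gene lists and motifs were chosen with earlier results of these data known.

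The labels do not say that replicate numbers pair libraries. In the ESC overexpression table same-numbered libraries deviated together in all 4 pairs (r 0.276 to 0.674 for Obox3 and 0.414 to 0.637 for Obox5), and a replicate block gave 0 member calls there, as without it. Alternatives were a pseudocount of 0.1, no filter, Rn45s left out with sums set to 1000000, median scaling, no fold minimum, a replicate block and each library left out. Leaving out both second early 2-cell libraries was added after seeing the data. Figures were drawn with matplotlib 3.10.9.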

Additional observations from a re-analysis of the deposited data

Results flagged for a closer look

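In groups of 4 to 10 libraries, 8 of 144 sets of values held 1 library far from the rest by Dixon's test, where chance alone gives about 1 in 20. In Obox-- late 2-cell embryos Hars2 was 0.837 FPKM in library 1 (others 0.262 to 0.357), Nars2 was 2.81 in library 4 (others 0.489 to 0.670), and Tars was 39.1 in library 3 (others 10.4 to 13.1). In ESCs with Obox3, Lars2 was 1371 FPKM in library 4 (others 152 to 236) and Wars2 was 0.309 in library 1 (others 1.44 to 1.64). In ESCs with Obox5, Aars2 was 5.97 in library 4 (others 1.24 to 1.33). In ESCs with GFP, Lars2 was 1963 in library 5 (others 133 to 515) and Aars was 41.7 in library 4 (others 33.5 to 35.0).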

How the results depend on the processing

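Counts of called members are given here for settings that moved them by more than 1.5 times; the cause was not tested. With a pseudocount of 0.1 there was 1 call for mzKO against WT at the 4-cell time, 0 for WT 4-cell against late 2-cell, 2 for WT blastocyst against 4-cell and 0 for mzKO 4-cell time against late 2-cell. With no filter there were 5 for WT early 2-cell against MII, 1 for WT 4-cell against late 2-cell and 0 for mKO against WT. With Rn45s left out there were 1 for mzKO against WT at the 4-cell time, 2 for WT MII against FGO, 3 for WT early 2-cell against MII, 0 for WT 4-cell against late 2-cell, 4 for WT blastocyst against 4-cell, 0 for mzKO 4-cell time against late 2-cell and 0 for mKO against WT. With median scaling there were 1 for mzKO against WT at late 2-cell, 2 for WT early 2-cell against MII, 6 for mzKO late against early 2-cell and 0 for mKO against WT. Without both second early 2-cell libraries there were 1 for WT early 2-cell against MII and 5 for mzKO late against early 2-cell. With no fold minimum no count moved by as much. Median scaling moved the median of all genes by -0.63 for WT late against early 2-cell, -0.48 for WT MII against FGO, 0.44 for WT early 2-cell against MII, 0.50 for mKO against WT and 0.96 for later arrested mzKO embryos.

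With each library left out in turn the count ran from 1 to 3 for mzKO against WT at late 2-cell, 1 to 6 at the 4-cell time, 0 to 4 for WT MII against FGO, 2 to 16 for WT early 2-cell against MII, 12 to 23 for WT late against early 2-cell, 0 to 2 for WT 4-cell against late 2-cell and 3 to 7 for WT blastocyst against 4-cell. It ran from 4 to 10 for mzKO late against early 2-cell, 0 to 1 for mzKO 4-cell time against late 2-cell, 19 to 26 for later arrested mzKO against the 4-cell time, 0 to 15 for mKO against WT, 0 to 1 for Obox-- against Obox+- at early 2-cell, 15 to 18 for late against early 2-cell in Obox-- and 19 to 21 in Obox+-. It was 0 for Obox3 against GFP in Nr5a2 KO ESCs, 0 to 2 for the mzKO effect at late minus early 2-cell and 0 to 1 for that at the 4-cell time minus late 2-cell.

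In later arrested mzKO embryos against the 4-cell time, signs turned with Rn45s left out for Eprs (1.43), Farsa (0.83) and Nars (0.44), and with median scaling for Cars (0.40), Eprs (1.18), Farsa (0.65) and Nars (0.26). With each library left out in turn, uncalled genes turned sign: Aars (-0.13 to 1.38) and Vars2 (-0.27 to 1.15, with -0.19 in another) in FGO, Mars (-0.10 to 1.29) and Nars (-1.10 to 0.11) with siObox8, and Lars2 (-2.13 to 0.049) with Obox5 in Nr5a2 KO ESCs. With a replicate block the counts were 4 for mzKO against WT at late 2-cell and 7 at the 4-cell time, 21 for WT late against early 2-cell and 6 for mKO against WT, and no count moved by over 1.5 times. Outside the ESC overexpression table the numbers were not found to pair libraries in comparisons with 3 or more shared numbers. Comparisons with 2 shared numbers fell short of the 3 that the rule needed, so they could not be found to pair. Their r ran from -0.559 for siObox8 to 0.688 for siObox4, and was 0.655 for mzKO against WT at early 2-cell. These r match libraries of equal number only. In the deposited order siObox8 library 1 stood with siCtrl library 2, so the r of siObox8 need not show an absence of pairing. With 3 or more pairs, every sample correlated best with its own number only for mzKO against WT at the 4-cell time (3 of 3) and Obox5 against GFP in ESCs (4 of 4).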
